A study of Canis lupus familiaris with 15 samples.

Results

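Genes of the mitochondrial respiratory chain and ATP synthase were compared between 3 cell lines from canine mammary tumours. Members were all genes on the array whose symbol began with NDUFA, NDUFB, NDUFC, NDUFS, NDUFV, SDHA, SDHB, SDHC, SDHD, UQCR, ATP5 or COX followed by a digit. This took 61 of the 5246 named genes, measured by 95 probes, and 34 other dog genes that the rule would take had no named probe. They comprised 26 subunits of complex I, 3 of complex II, 6 of complex III, 6 of complex IV and 8 of complex V, and 12 genes that assemble, link or inhibit the complexes. None of the 16 symbols listed for subunits encoded in mitochondrial DNA had a named probe.

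The lines were CMT-U229, derived from a benign mixed tumour, CMT-U335, derived from a mammary osteosarcoma, and P114, derived from an anaplastic carcinoma. RNA of cultures near confluence was hybridised directly, line against line, on 15 cDNA arrays, 5 for each of the 3 pairs, with the dyes exchanged between arrays of a pair. Each tumour type was represented by 1 line, so tumour type and line cannot be told apart. The labels call the 5 arrays biological replicates, while the design text mentions swapped dyes and 1 or more biological replicates per pair. Some arrays may therefore repeat the same RNA, and the p-values reflect how far arrays of a pair differ, which may be technical.

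The respiratory chain lies in the inner mitochondrial membrane. Complexes I and II pass electrons from NADH and succinate to ubiquinone, complex III passes them on to cytochrome c and complex IV to oxygen, and complex V makes ATP from the proton gradient that complexes I, III and IV build. Most subunits are encoded in the nucleus, and tumour cells differ widely in how far they rely on this route beside glycolysis.

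Values are log2 ratios of the line named first over the line named second. A ratio gives no level, so genes were not ranked by abundance. The numerator dye was not stated and was read as Cy5, so every direction below is likely but not settled, and all of them would turn together. A gene was called at an adjusted p under 0.05 (limma, Benjamini-Hochberg over all named genes). Errors of mean ratios are limma's moderated standard errors (n = 5 arrays), which draw on the spread of all genes, and lists of 5 values run from replicate 1 to 5, which have no order. The luminal epithelial markers KRT8, KRT18 and EPCAM were all called higher in P114 and in CMT-U229 than in CMT-U335, while the 5 measured mesenchymal and bone markers were mixed. Of these, 2 were called higher (SPP1, 4.12, and SPARC, 0.56) and 1 lower (COL1A2, -1.39) in P114 over CMT-U335, and SPP1 was higher (2.58) and COL1A2 lower (-3.39) in CMT-U229 over CMT-U335. CD14, a monocyte marker and 1 of 4 leukocyte markers measured, was higher in P114 than in either other line (0.36 and 0.50), and 0 of 4 muscle markers were called in any pair. In P114 over CMT-U229, 2 of 3 luminal markers were called higher (range -0.31 to 2.41). So were 2 of 5 mesenchymal and bone markers (range -0.04 to 2.06). Of 2 myoepithelial markers measured, 1 was called lower in P114 over CMT-U229 (-2.03 and -0.06). In CMT-U229 over CMT-U335, 1 of them was called higher (2.22 and 0.27), and in P114 over CMT-U335 none was called. The part of all these differences in the results below was not tested.

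P114 was set against CMT-U335 first. Of the 61 members, 3 were called higher and 13 lower, together 26.2%, beside 22.3% of all named genes. By direction, 4.92% of members were higher beside 7.89% of all genes, and 21.3% were lower beside 14.4%. The calls were 3 higher and 6 lower in complex I, 2 lower in complex II, 1 lower in each of complexes III and IV, none in complex V and 3 lower among assembly genes. The sign was the same on all 5 arrays for 24 of the 61 members, beside 1707 of 5246 named genes (32.5%). A call with at least a 2-fold ratio was reached by 3 of the 61 members (NDUFV2, NDUFB3 and NDUFAF2), beside 195 of 5246 named genes (3.72%). Without replicate 3 the lower count fell to 8, while that of all genes fell from 755 to 525. Without replicate 5 the higher count was 5, while that of all genes fell from 414 to 394.

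Against CMT-U229, P114 differed in fewer members. Complex I subunits made up all 5 members called higher, and 0 members were called lower, so 8.2% were called beside 7.3% of all named genes. By direction, 3.32% of all genes were called higher and 3.98% lower. The unadjusted limma p was under 0.05 for 3 members with a lower mean and for 9 with a higher mean. COX4I1 led the lower ones at 0.0119 (0.106 after adjustment). No share of all named genes is given for the unadjusted p. The sign was the same on all arrays for 15 members, beside 18.4% of all genes. NDUFV2 and NDUFB3 were the 2 of 61 members called with at least a 2-fold ratio, beside 93 of 5246 named genes (1.77%). The count of 5 fell to 2 without replicate 1 and to 3 without any other array. Over all genes the higher count fell from 174 to 102 without replicate 1 and to between 94 and 153 without another array.

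Between CMT-U229 and CMT-U335, 2 members were called higher and 12 lower, together 23.0%, beside 17.3% of all named genes. By direction, 3.28% of members were higher beside 8.77% of all genes, and 19.7% were lower beside 8.58%. The lower calls were 5 in complex I, 2 in complex II, 1 in each of complexes III and V and 3 among assembly genes. The sign was the same on all arrays for 16 of the 61 members, beside 1504 of 5246 named genes (28.7%). NDUFAF2 and NDUFB5 were the 2 of 61 members called with at least a 2-fold ratio, beside 154 of 5246 named genes (2.94%). The lower count was 5 without replicate 2 or replicate 5, where that of all genes fell from 450 to 272 and 266. The higher count was 0 without replicate 2, 3 or 5 and 1 without replicate 1 or 4. Over all genes the higher count fell from 460 to between 305 and 396. With apparent dye swaps averaged first, NDUFAF2, NDUFB5, NDUFB9 and SDHD kept their lower call in this pair. The other 8 lower and both higher calls were lost, while calls over all named genes fell from 17.3% to 7.82%. The 3 pairs share lines and perhaps RNA, so their values are set side by side below and are not independent.

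**Figure D1:**
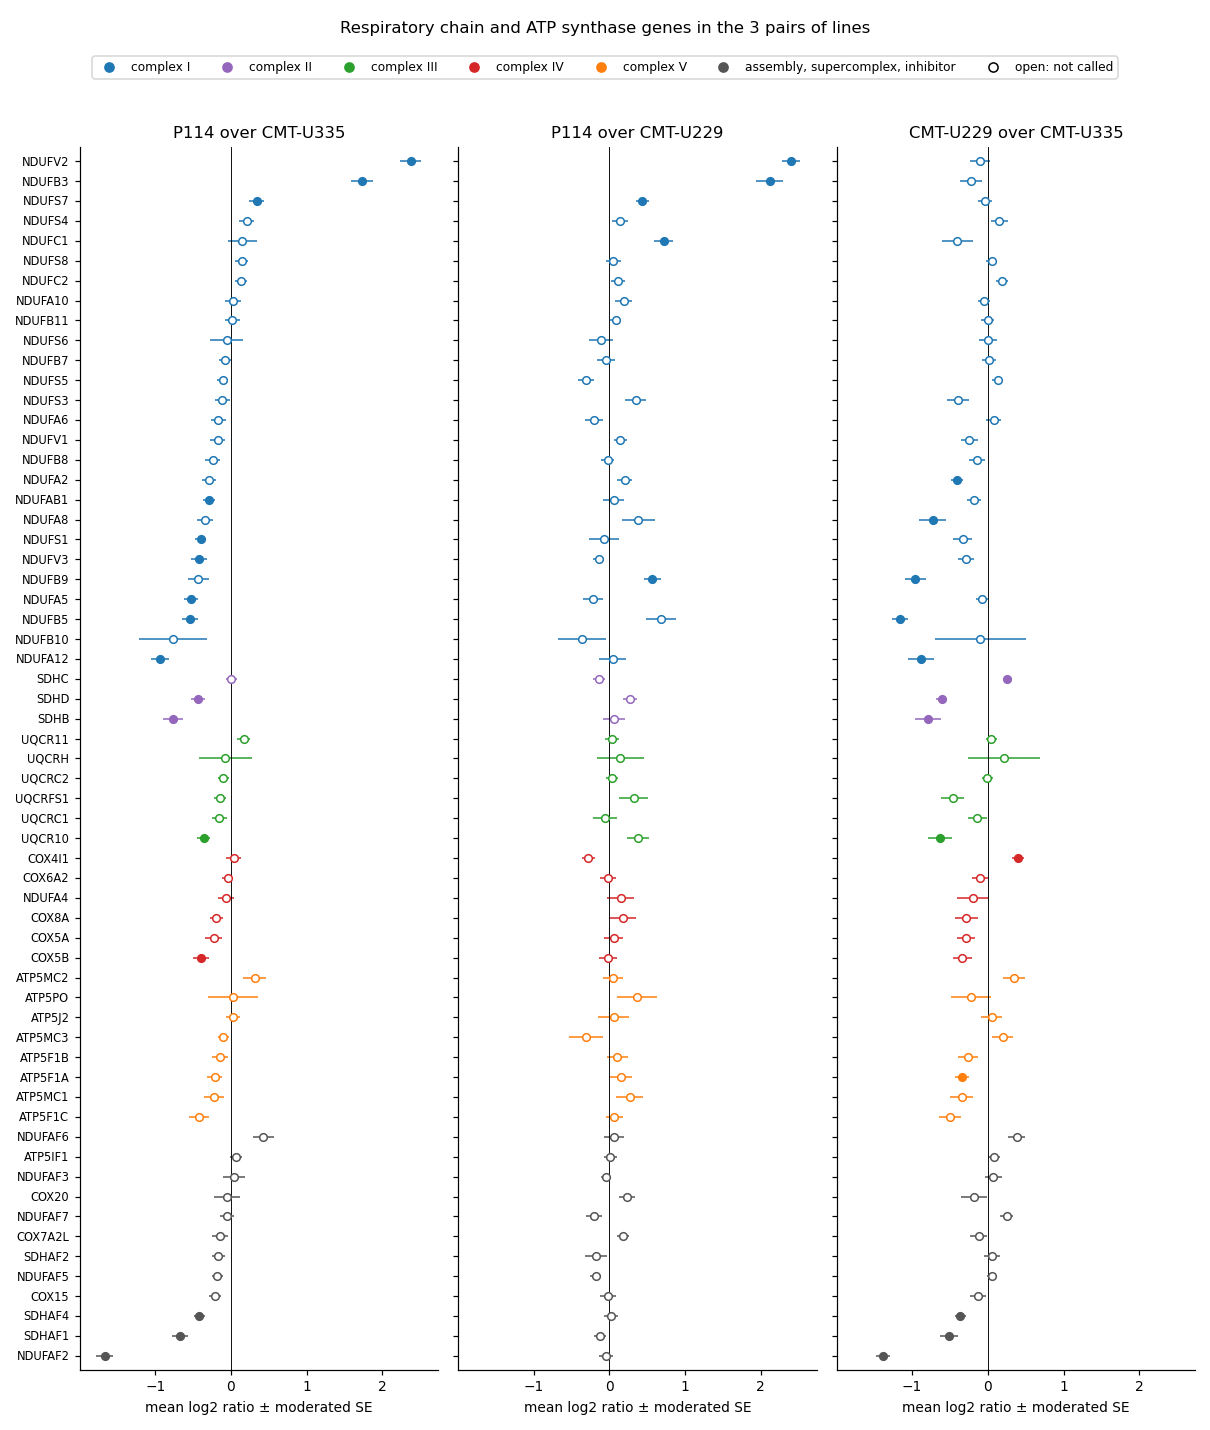
Mean log2 ratio of each of the 61 members (horizontal axis, 5 arrays, with limma's moderated standard error) in the 3 pairs of lines, with genes grouped by complex on the vertical axis and filled points for called members. NDUFV2 and NDUFB3 lie far to the right in both panels with P114, NDUFAF2 lies far to the left in both panels with CMT-U335, and most other members lie within 0.5 of 0.

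Complex I has a peripheral arm, which takes electrons from NADH and carries them along iron-sulfur clusters, and a membrane arm, which pumps protons. NDUFV2, an iron-sulfur subunit of the NADH-oxidising part of the peripheral arm, had the largest ratio of all members. In P114 over CMT-U335 it read 2.23, 1.93, 2.37, 2.93 and 2.43, a mean of 2.37 ± 0.14 (5.19-fold, adjusted p = 6.15e-05). In P114 over CMT-U229 it read 2.31, 2.22, 2.60, 2.81 and 2.07, a mean of 2.40 ± 0.12 (5.29-fold, adjusted p = 0.000119). Every one of these 10 values lay above 1.9, and by size of ratio the gene ranked 20 and 9 of 5246. Its mean in CMT-U229 over CMT-U335 was -0.10 ± 0.13 and was not called (adjusted p = 0.71), with 3 of 5 arrays above 0. NDUFV2 had 1 probe on the array.

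NDUFB3, a small accessory subunit of the membrane arm, showed the same order of lines. It read 1.91, 1.31, 1.32, 2.14 and 1.97 in P114 over CMT-U335, with a mean of 1.73 ± 0.14 (adjusted p = 0.00027). In P114 over CMT-U229 it read 1.68, 1.75, 2.76, 2.54 and 1.86, with a mean of 2.12 ± 0.18 (adjusted p = 0.00078). All values were above 1, and CMT-U229 over CMT-U335 gave -0.22 ± 0.15, not called. NDUFB3 also had 1 probe, and its Entrez identifier was not in the RefSeq gene table, so its name rests on the older array annotation alone. The same holds for NDUFA4.

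NDUFS7, the subunit with the last iron-sulfur cluster before ubiquinone, was also higher in P114, by much less. It read 0.33, 0.31, 0.34, 0.66 and 0.05 over CMT-U335 (0.34 ± 0.10, adjusted p = 0.0437) and 0.35, 0.29, 0.64, 0.56 and 0.34 over CMT-U229 (0.44 ± 0.08, adjusted p = 0.0242). All values were positive, yet the call over CMT-U229 was lost without any one array, at adjusted p up to 0.0797. Over CMT-U335 it was lost without any of 4 arrays, at adjusted p up to 0.122, and with scale normalization. CMT-U229 over CMT-U335 gave -0.03 ± 0.09.

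Both remaining members called higher in P114 than in CMT-U229 are membrane-arm subunits. NDUFC1 read 0.58, 0.39, 0.50, 1.15 and 0.96 (0.72 ± 0.13, adjusted p = 0.0182). NDUFB9 read 0.70, 0.49, 0.92, 0.53 and 0.19 (0.56 ± 0.11, adjusted p = 0.0277). No array of this pair was below 0 for either gene. NDUFB9 lost its call without any of 4 arrays and NDUFC1 without either of 2, at adjusted p up to 0.11 and 0.0741. With apparent dye swaps averaged first, both calls were lost, and NDUFV2 and NDUFB3 were the 2 members still called higher in this pair. Calls over all named genes fell from 7.3% to 1.51% in that setting.

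NDUFB9 was lowest in CMT-U229. Its values in CMT-U229 over CMT-U335 were -0.44, -1.30, -1.04, -1.27 and -0.74, with a mean of -0.96 ± 0.14 (adjusted p = 0.00394). All 5 arrays were negative, and the call held without each array in turn. P114 over CMT-U335 gave -0.43 ± 0.14, which was not called (adjusted p = 0.0703), with 1 array above 0.

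NDUFB5, another membrane-arm subunit, was also lower in CMT-U229 than in CMT-U335. It read -1.35, -0.87, -0.88, -1.27 and -1.44, a mean of -1.16 ± 0.11 (2.24-fold lower, adjusted p = 0.000767). P114 over CMT-U335 read -0.46, -0.62, -0.94, -0.33 and -0.35, a mean of -0.54 ± 0.11 (adjusted p = 0.00952). All 10 values were negative. P114 over CMT-U229 was positive on all 5 arrays, from 0.18 to 1.57, but its mean of 0.68 ± 0.19 was not called (adjusted p = 0.0891). NDUFB5 had 4 probes. Probes 2, 3 and 4 were each called lower in both pairs with CMT-U335, at -1.46, -1.36 and -1.13 for CMT-U229, while probe 1, at -0.70 ± 0.28, was not.

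NDUFA12, an accessory subunit of the peripheral arm, was higher in CMT-U335 than in either other line. P114 over CMT-U335 read -1.05, -0.79, -1.17, -0.51 and -1.16 (-0.94 ± 0.11, adjusted p = 0.00132). CMT-U229 over CMT-U335 read -0.32, -0.78, -0.57, -1.34 and -1.41 (-0.88 ± 0.17, adjusted p = 0.0136). All values were negative, with a wider spread in the second pair, where apparent dye swaps, averaged, ended the call. P114 over CMT-U229 gave 0.04 ± 0.18.

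The other complex I calls were smaller. In P114 over CMT-U335, NDUFA5 (-0.53 ± 0.09), NDUFV3 (-0.42 ± 0.10) and NDUFS1 (-0.40 ± 0.07), the last of which carries iron-sulfur clusters, were called lower in the peripheral arm, and NDUFAB1, the mitochondrial acyl carrier protein, was lower at -0.29 ± 0.08. NDUFA8 (-0.73 ± 0.18) and NDUFA2 (-0.41 ± 0.09) were called lower in CMT-U229 over CMT-U335, with 1 array of NDUFA8 at 2.89e-05. NDUFAB1 had an adjusted p of 0.0396, and its probe 1 was called lower (-0.35 ± 0.09) while its probe 2 was not (-0.23 ± 0.10). The stability of these smaller calls was not checked gene by gene. For counts by arm, NDUFAB1 was placed in the membrane arm alone. The peripheral arm had 2 higher and 4 lower of 13 in P114 over CMT-U335, and the membrane arm 1 higher and 2 lower of 13. In P114 over CMT-U229 the counts were 2 and 3 higher, and in CMT-U229 over CMT-U335 2 and 3 lower. Calls either way took 46.2%, 15.4% and 15.4% of the peripheral arm in the 3 pairs, and 23.1% of the membrane arm in each. Beside these, 22.3%, 7.3% and 17.3% of all named genes were called. The 13 other complex I subunits were called in no pair.

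Assembly genes do not stay in the finished complex. NDUFAF2, an assembly factor of complex I that is related to NDUFA12 and whose place NDUFA12 takes late in assembly, had the largest negative ratios of all members. P114 over CMT-U335 read -1.74, -1.23, -2.003, -1.60 and -1.74, a mean of -1.66 ± 0.11 (3.17-fold lower, adjusted p = 0.000126). CMT-U229 over CMT-U335 read -1.68, -1.43, -1.23, -1.15 and -1.42, a mean of -1.38 ± 0.09 (2.61-fold lower, adjusted p = 0.000211). All 10 values lay below -1.1, and P114 over CMT-U229 gave -0.04 ± 0.09. Both NDUFAF2 and NDUFA12, each with 1 probe, thus had their lower ratios in the pairs with CMT-U335.

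Complex II is succinate dehydrogenase, which also works in the citric acid cycle. SDHB, its iron-sulfur subunit, read -1.11, -0.68, -0.81, -0.20 and -1.02 in P114 over CMT-U335 (-0.76 ± 0.13, adjusted p = 0.00625). CMT-U229 over CMT-U335 read -0.06, -0.91, -0.74, -1.34 and -0.91 (-0.79 ± 0.17, adjusted p = 0.0189). All were negative, with 1 array of each pair well above its others, and the call in the second pair was lost without any of 3 arrays, at adjusted p up to 0.0699. P114 over CMT-U229 gave 0.07 ± 0.15.

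SDHD and SDHC anchor the complex in the membrane and differed in direction. SDHD was -0.44 ± 0.10 in P114 over CMT-U335 (adjusted p = 0.0156) and -0.61 ± 0.07 in CMT-U229 over CMT-U335 (adjusted p = 0.00188). SDHC was 0.01 ± 0.08 in the first of these pairs, and in the second it read 0.31, 0.27, 0.28, 0.20 and 0.22 (0.26 ± 0.06, adjusted p = 0.0294). The SDHC values all lay above 0 in a narrow band, but they average 3 probes that differed, with probe 3 called higher (0.43 ± 0.08) and probes 1 and 2 not called (0.31 ± 0.09 and 0.04 ± 0.08). The call was lost without any one array, at adjusted p up to 0.108. SDHD kept its call in CMT-U229 over CMT-U335 without each array in turn and lost it in P114 over CMT-U335 without either of 2 arrays.

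SDHAF1 and SDHAF4 help to build complex II, on the iron-sulfur subunit and on the flavoprotein subunit. SDHAF1 read -0.72, -0.53, -0.71, -0.34 and -1.06 in P114 over CMT-U335 (-0.67 ± 0.11, adjusted p = 0.00453) and had a mean of -0.51 ± 0.12 in CMT-U229 over CMT-U335 (adjusted p = 0.0274). SDHAF4 was -0.42 ± 0.07 (adjusted p = 0.00426) and -0.36 ± 0.07 (adjusted p = 0.0153) in the same pairs. Every array of both pairs was negative for both genes. The calls in CMT-U229 over CMT-U335 were lost without any of 3 arrays for SDHAF1 and of 2 for SDHAF4. SDHAF2, which helps to attach the flavin, was not called in any pair.

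Complex III had 1 member called. UQCR10, a small subunit at the edge of the complex, read -0.60, -0.31, -0.35, -0.11 and -0.43 in P114 over CMT-U335 (-0.36 ± 0.09, adjusted p = 0.0236). CMT-U229 over CMT-U335 read -0.20, -0.49, -0.31, -1.25 and -0.90 (-0.63 ± 0.16, adjusted p = 0.0359). All values were negative, but both calls were lost without any of 4 arrays, at adjusted p up to 0.122. The core proteins UQCRC1 and UQCRC2, the Rieske protein UQCRFS1, the hinge protein UQCRH and UQCR11 were not called, with means from -0.46 to 0.32 in the 3 pairs. UQCRFS1 had 5 probes, which ran together, from -0.54 to -0.36 in CMT-U229 over CMT-U335.

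Complex IV had 1 call in each pair with CMT-U335, in opposite directions. COX5B, a zinc-binding subunit, read -0.64, -0.21, -0.29, -0.15 and -0.71 in P114 over CMT-U335 (-0.40 ± 0.11, adjusted p = 0.0337), negative throughout but lost without any of 3 arrays, at adjusted p up to 0.1, and with a dye term. COX4I1, the main form of a regulatory subunit, read 0.63, 0.41, 0.39, 0.17 and 0.40 in CMT-U229 over CMT-U335 (0.40 ± 0.08, adjusted p = 0.0168), positive throughout and also lost without any of 3 arrays. Its 2 probes did not run together. Probe 1 was higher in CMT-U229 than in CMT-U335 (0.72 ± 0.07) and lower in P114 than in CMT-U229 (-0.81 ± 0.08), whereas probe 2 gave 0.08 ± 0.14 and 0.26 ± 0.11, with neither called. The mean over the gene therefore rests on probe 1. COX5A, COX8A, NDUFA4 and COX6A2, the form found in heart and skeletal muscle, were not called, with means from -0.29 to 0.17.

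Complex V had 1 call in the 3 pairs. ATP5F1C, the gamma subunit of the rotating stalk, had the largest ratio of the complex and read 0.06, -0.50, -0.42, -0.94 and -0.70 in CMT-U229 over CMT-U335. Its mean of -0.50 ± 0.14 was not called (adjusted p = 0.052), and 1 array was above 0. ATP5F1A, the alpha subunit of the catalytic head, was the 1 member called, at -0.34 ± 0.09 (adjusted p = 0.0464) in the same pair. Its 1 probe was not called in limma's fit over single probes (adjusted p = 0.0505), so the call lies at the threshold. The stability of this call by itself was not checked. The catalytic beta subunit ATP5F1B was -0.26 ± 0.13 there and not called. The 3 genes of the membrane ring subunit c went different ways in that pair, with ATP5MC1 at -0.35 ± 0.15, ATP5MC2 at 0.34 ± 0.15 and ATP5MC3 at 0.20 ± 0.14, none of them called. ATP5J2 lay within 0.06 of 0 in all 3 pairs.

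**Figure D2:**
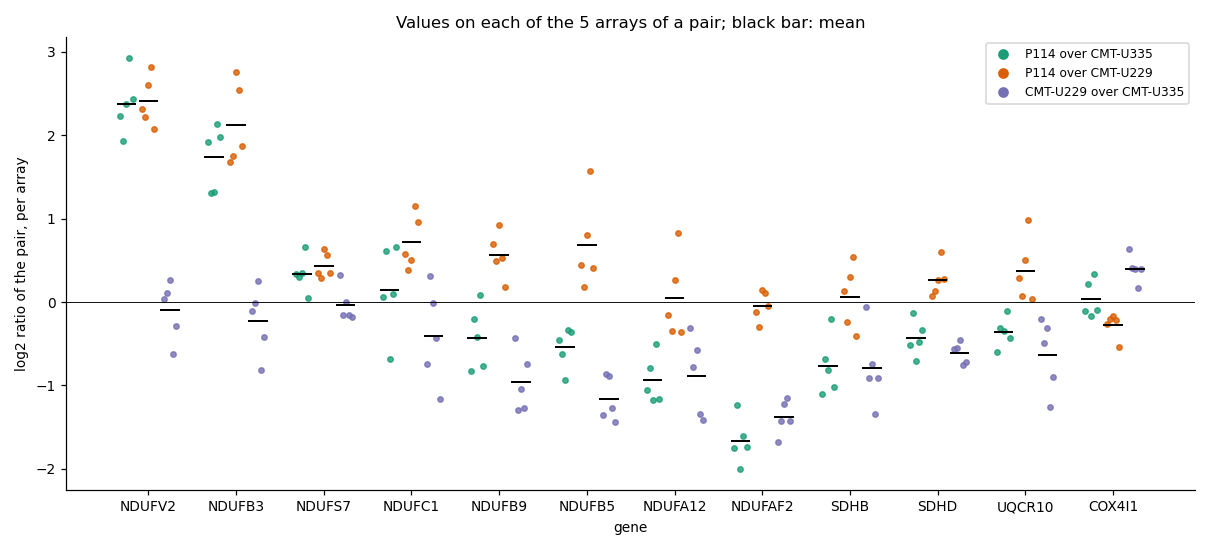
Log2 ratio on each of the 5 arrays of a pair (vertical axis) for 12 members (horizontal axis), with 1 colour per pair and a black bar at the mean. The NDUFV2 points with P114 lie between 1.93 and 2.93, the NDUFAF2 points with CMT-U335 lie between -2.003 and -1.15, and the NDUFS7 and COX4I1 points lie much nearer 0.

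Among the remaining assembly and linking genes, NDUFAF3, NDUFAF5, NDUFAF6, NDUFAF7, SDHAF2, COX15, COX20 and COX7A2L were not called, with means from -0.21 to 0.43. ATP5IF1, which inhibits ATP synthase when it runs in reverse, had a gene mean of 0.07 ± 0.08 in P114 over CMT-U335, but its probes were called in opposite directions there. Probe 1 read 0.33, 0.34, 0.64, 0.28 and 0.80 (0.48 ± 0.10, adjusted p = 0.0152), all positive. Probe 2 read -0.65, -0.10, -0.69, -0.39 and -0.68 (-0.50 ± 0.11, adjusted p = 0.0149), all negative. Probe 3 was 0.24 ± 0.10 and not called, so no direction can be given for this gene.

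Of the 23 members with several probes, all probes had the same sign in 14 for P114 over CMT-U335, in 17 for P114 over CMT-U229 and in 18 for CMT-U229 over CMT-U335. The range between probes of a gene had a median of 0.12, 0.13 and 0.17 in these pairs and reached 0.98, 1.07 and 0.75. Probe 1 of NDUFV1, the NADH-binding subunit, was called lower in P114 than in CMT-U335 (-0.64 ± 0.13), while its probes 2 and 3 gave -0.01 and 0.11. Probe 2 of UQCRC2 was called lower in that pair (-0.35 ± 0.08) and its probe 1 gave 0.15 ± 0.10.

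**Figure D3:**
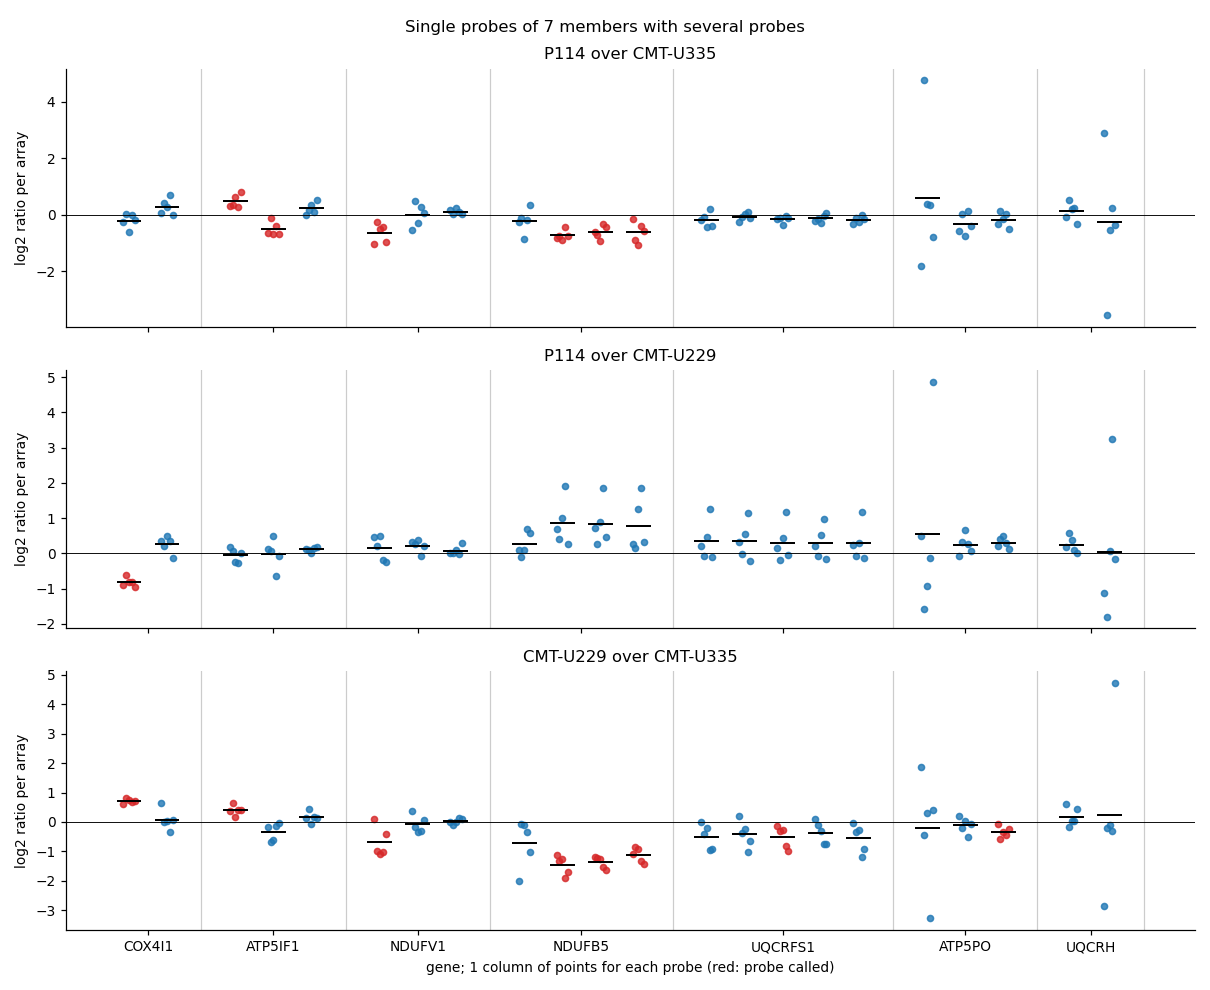
Log2 ratio on each of 5 arrays (vertical axis) for every probe of 7 members (1 column of points per probe, black bar at the mean, red where the probe was called), in 3 panels for the 3 pairs. The UQCRFS1 probes lie together, the first and second ATP5IF1 probes lie on opposite sides of 0 in the panel for P114 over CMT-U335, and the first ATP5PO and second UQCRH probes scatter from -3.56 to 4.87.

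Some members could not be measured well. NDUFB10, a membrane-arm subunit with 1 probe, read -2.96, 0.44, -0.94, 0.21 and -0.57 in P114 over CMT-U335 and 0.24, 2.26, -0.37, -2.73 and 0.11 in CMT-U229 over CMT-U335. Its standard errors of 0.45 and 0.61 were above the medians of 0.0985 and 0.112 over members. Probe 1 of ATP5PO, a stalk subunit of ATP synthase, read -1.81, 4.76, 0.40, 0.33 and -0.78 in the first pair, and probe 2 of UQCRH read -2.86, -0.22, -0.09, -0.31 and 4.73 in the second. The sign differed between arrays in each case, and these genes were not called.

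Medians were taken over the members of each complex on each array and averaged over the 5 arrays, with no test. In P114 over CMT-U335 they were -0.14 ± 0.14 (SD) for complex I, -0.38 ± 0.24 for II, -0.11 ± 0.14 for III, -0.15 ± 0.15 for IV and -0.13 ± 0.18 for V, beside -0.04 ± 0.03 for all named genes. In P114 over CMT-U229 the 5 complexes lay between -0.004 (IV) and 0.18 (III), with SDs from 0.23 to 0.38, beside -0.02 ± 0.03. Those of CMT-U229 over CMT-U335 were -0.12 ± 0.17, -0.51 ± 0.28, -0.13 ± 0.17, -0.24 ± 0.34 and -0.17 ± 0.35, beside -0.003 ± 0.04. Complex II was the lowest in both pairs with CMT-U335, but it rests on 3 genes, of which SDHC was not lower. For complexes III and V the SD was larger than the distance from 0 in all 3 pairs.

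Medians of the complexes differed between arrays of a pair. In CMT-U229 over CMT-U335 the medians of all 5 complexes were highest on replicate 1, from -0.06 to 0.36, and lowest on replicate 4, from -0.76 to -0.34, where all named genes had medians of 0.06 and -0.06. There 37 of 61 members had their highest value on replicate 1 and 36 their lowest on replicate 4, but NDUFAF2 was lowest on replicate 1 (-1.68) and highest on replicate 4 (-1.15). On the same arrays 43 of 61 members were above 0 on replicate 1 and 10 on replicate 4. In P114 over CMT-U229 the medians were lowest on replicate 5 for all 5 complexes, and 4 of them were highest on replicate 4. There 45 members were above 0 on replicate 4 and 17 on replicate 5. The median SD of a member over the arrays was 0.292 in that pair and 0.279 in CMT-U229 over CMT-U335, beside 0.227 and 0.211 for all named genes, and 0.224 beside 0.217 in P114 over CMT-U335. In P114 over CMT-U335 the complexes did not share their extremes, with the highest median on replicate 2 or 4 and the lowest on replicate 1, 3 or 5. Whether members vary together from array to array was not tested.

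**Figure D4:**
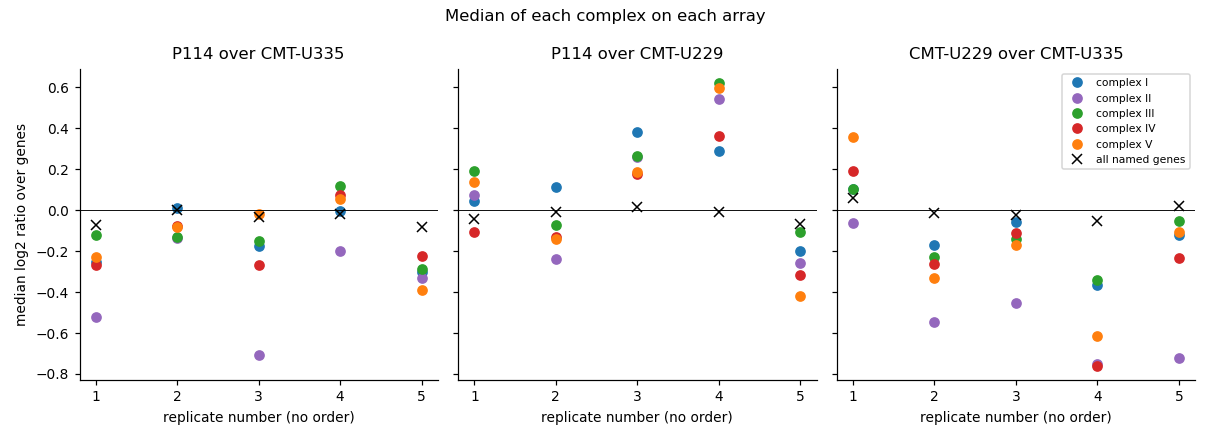
Median log2 ratio over the genes of each complex (coloured points) and over all named genes (crosses) on each array (replicate number on the horizontal axis), in 3 panels for the 3 pairs. In CMT-U229 over CMT-U335 the complexes lie between -0.06 and 0.36 on replicate 1 and between -0.76 and -0.34 on replicate 4, while the crosses stay within 0.09 of 0 in all panels.

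The loop of hybridisations allows each direct ratio to be set against the route through the third line. For NDUFV2 the direct ratio of P114 over CMT-U335 was 2.37 and the route through CMT-U229 gave 2.30. For NDUFB3 they were 1.73 and 1.90, and for NDUFAF2 -1.66 and -1.43. In a limma fit over all 15 arrays, 0 of 61 members differed between the routes (0 at an unadjusted p under 0.05), and of all named genes 0% were called and 0.324% had an unadjusted p under 0.05.

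Genes that work beside the complexes were read from fixed lists. The counts of every list below stand beside 7.89% of all named genes called higher and 14.4% lower in P114 over CMT-U335. These shares were 3.32% and 3.98% in P114 over CMT-U229, and 8.77% and 8.58% in CMT-U229 over CMT-U335. Of 10 measured genes for cytochrome c, cytochrome c1, ubiquinone synthesis and other routes of electrons into ubiquinone (ETFA, ETFB, ETFDH and GPD2), 2 were called higher and 3 lower in P114 over CMT-U335, 0 in P114 over CMT-U229, and 2 higher and 0 lower in CMT-U229 over CMT-U335. CYC1, the cytochrome c1 subunit of complex III whose symbol falls outside the rule, was 1.44 ± 0.15 and 0.93 ± 0.17 in the pairs with CMT-U335, and COQ2, an early enzyme of ubiquinone synthesis, 0.53 ± 0.09 and 0.60 ± 0.12. COQ7, a late enzyme of the same route, was -1.01 ± 0.13 in P114 over CMT-U335, and the electron carrier cytochrome c (CYCS) -0.53 ± 0.10. CYC1 was thus higher where UQCR10 of the same complex was lower. In the RefSeq gene table CYC1 lies on the same chromosome as NDUFB9, with 100 protein-coding genes between them.

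Of 14 measured assembly and stability factors outside the rule, 2 were called higher and 3 lower in P114 over CMT-U335, 1 higher in P114 over CMT-U229, and 2 higher and 2 lower in CMT-U229 over CMT-U335. TMEM70, needed to build ATP synthase, was 0.66 ± 0.10 and FOXRED1, a complex I factor, 0.27 ± 0.08 in the first pair, where HIGD1A was -0.53 ± 0.10 and COA1 -0.36 ± 0.07. OXA1L, which inserts proteins into the inner membrane, was 0.46 ± 0.09 in the second. In the third, HIGD2A was 0.34 ± 0.06, TMEM70 0.29 ± 0.07, COA1 -0.45 ± 0.08 and BCS1L, which inserts the Rieske protein, -0.30 ± 0.08. These factors had no shared direction.

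Of 10 measured genes of the citric acid cycle and its entry, 0 were called higher and 4 lower in P114 over CMT-U335, led by IDH2 (-0.82 ± 0.07) and DLD (-0.53 ± 0.10). None was called in P114 over CMT-U229, and in CMT-U229 over CMT-U335 IDH2 was lower (-0.64 ± 0.15) and IDH3G higher (0.30 ± 0.08). Of 8 measured carriers and channels for nucleotides and phosphate, 3 were higher in P114 than in CMT-U335, among them SLC25A6 (0.55 ± 0.09), which exchanges ADP for ATP, and VDAC2 (0.52 ± 0.10), a channel of the outer membrane. VDAC3 (0.53 ± 0.12) and SLC25A6 (0.47 ± 0.08) were higher in CMT-U229 than in CMT-U335, and none was called between P114 and CMT-U229.

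Of 10 measured regulators of mitochondrial biogenesis, POLG (-0.35 ± 0.08), POLG2 (-0.32 ± 0.07) and 1 other were called lower in P114 over CMT-U335, where 0 were higher. SSBP1 was higher (0.38 ± 0.08) and TFB2M lower (-0.39 ± 0.07) in CMT-U229 over CMT-U335, and 0 were called between P114 and CMT-U229. Of 15 measured glycolysis genes, 2 were higher (LDHA, 0.57 ± 0.14, and PFKP, 0.48 ± 0.11) and 1 lower (PGAM1, -0.56 ± 0.10) in P114 over CMT-U335. PGK1 was 0.74 ± 0.09 and GPI 0.45 ± 0.10 in P114 over CMT-U229, and PGK1 was -0.68 ± 0.13 in CMT-U229 over CMT-U335.

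The vacuolar ATPase, a proton pump of lysosomes with no part in respiration, was read for contrast. Of 12 measured subunits, 1 was called higher (ATP6V1C1, 0.77 ± 0.11) and 2 lower (ATP6V1D, -1.07 ± 0.20, and ATP6V1B2, -0.69 ± 0.10) in P114 over CMT-U335, and 0 in P114 over CMT-U229. In CMT-U229 over CMT-U335, 2 were higher (ATP6V1C1, 0.67 ± 0.08, and ATP6V0E1, 0.33 ± 0.08) and ATP6V1B2 was lower (-0.42 ± 0.09). Medians over the subunits were -0.26, -0.02 and -0.16 in the 3 pairs, beside -0.15, 0.06 and -0.14 over the 61 members.

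Position was read as well, since neighbouring genes can vary together. The closest members were NDUFS8 and NDUFV1, with 7 protein-coding genes between them in the RefSeq table. Neither gene mean was called in any pair, though probe 1 of NDUFV1 was called lower in both pairs with CMT-U335. UQCR11 and NDUFS7 had 12 between them. NDUFS7 was called in both pairs with P114 while UQCR11, at 0.17 ± 0.08 and 0.03 ± 0.09, was not. Genes of the lists were set beside members too. COA5 and COX5B had 8 between them, and both were called lower in P114 over CMT-U335 (-0.31 ± 0.08 and -0.40 ± 0.11). CD14 and NDUFA2 had 1 between them, and CD14 was called higher in both pairs with P114, where NDUFA2 was not called. Whether neighbours vary together was not tested.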

How the data were processed

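The deposited values are log2 ratios of Cy5 over Cy3, as read here. Per the series design text and the labels, the authors normalized and log transformed them. Numerator, log base and normalization method: not given in the sources used here. A base of 2 was assumed, since values reach 12.43 in size. Without intensities, depth and background behind a ratio are unknown, and precision is limited by the number of arrays.

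Of 22176 probes, 7694 had 1 gene symbol in the array annotation, 0 several and 14482 none. Symbols of 7340 probes were updated through RefSeq's gene table (assembly UU_Cfam_GSD_1.0). Arrays were turned by their dyes, and probes of a gene averaged per array. A gene needed a value on 3 of 5 arrays. Mean ratios were tested against 0 pair by pair with limma 3.58.1 in R 4.3.3 (lmFit and eBayes, two-sided), in place of the SAM test that the series design text names. The script was tested on simulated data.

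Array-level values were named for the 5 called members with the largest ratio in each direction of a pair and the leading member of each complex, and probe values where probes were called in opposite directions. Members called in the same direction in both pairs of a line were named too, and up to 2 genes per direction from each list. Other probe and array values were picked after they were seen. Members and lists were chosen with earlier results of these data known. The replicate numbers were checked for pairing, which the check could not settle, and the main fits treat arrays as unpaired. Alternatives were other centring, scaling, filters, probe summaries, dye, loop and pooled fits, averaged dye swaps, a stricter threshold and each array left out.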

Additional observations from a re-analysis of the deposited data

Results flagged for a closer look

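On 11 of 198 values tested (the 61 members and the 5 complex medians in 3 pairs), or 5.56%, 1 array stood apart from the other 4 by Dixon's test, of which chance gives about 1 in 20. In P114 over CMT-U335 these were ATP5MC1 at -0.80 on replicate 5 (others -0.19 to 0.02), NDUFA10 at 0.45 on replicate 4 (others -0.12 to -0.04) and NDUFA6 at 0.22 on replicate 4 (others -0.33 to -0.21). In P114 over CMT-U229, 4 of them lay on replicate 5. ATP5PO was at 1.69 (others -0.29 to 0.20), COX20 at 0.67 (others 0.06 to 0.16), COX15 at -0.41 (others -0.01 to 0.13) and COX4I1 at -0.54 (others -0.27 to -0.16). In the same pair, ATP5IF1 was at -0.26 on replicate 4 (others 0.03 to 0.14) and SDHAF4 at 0.33 on replicate 3 (others -0.10 to -0.02). In CMT-U229 over CMT-U335, ATP5IF1 was at -0.17 on replicate 3 (others 0.11 to 0.17) and NDUFAF6 at 0.87 on replicate 5 (others 0.17 to 0.31). None of these values was called.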

How the results depend on the processing

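Of 28 called values of members named with array values or as called in both pairs of a line, 14 kept their call under every alternative other than the stricter threshold, and no called value changed sign. They were NDUFA12, NDUFAF2, NDUFB3, NDUFB5, NDUFV2, SDHAF1, SDHAF4 and SDHB in P114 over CMT-U335, NDUFB3 and NDUFV2 in P114 over CMT-U229, and NDUFAF2, NDUFB5, NDUFB9 and SDHD in CMT-U229 over CMT-U335. With each array left out in turn, counts of members called higher and lower ran from 2 to 5 and from 8 to 14 in the first pair. They ran from 2 to 3 and 0 throughout in the second, and from 0 to 1 and from 5 to 16 in the third. Calls over all named genes then ran from 15.9% to 19.7%, from 3.85% to 7.78% and from 10.9% to 16.5%. The loop fit called more, with 6 higher in the first pair and 8 higher and 6 lower in the second. In the third it called 4 higher and 21 lower, and over all named genes it called 33.5%, 20.1% and 27.5%. A fit over all 15 arrays called 3 lower in the second pair, where it called 12.4% of all named genes. With apparent dye swaps averaged, 2 were called higher in the second pair, beside 1.51% of all named genes called. In the third, 0 were called higher and 4 lower, beside 7.82%. This setting was not run for the first pair, where no such swaps were named. At an adjusted p under 0.01, NDUFV2 and NDUFB3 were higher and 8 members lower in the first pair. At this threshold 2 were higher in the second, and 0 higher and 4 lower in the third. No share of all named genes is given for it. Replicate numbers are shared between pairs, and deviations of same-numbered arrays correlated from -0.248 to 0.333, over 0.1 in 3 of 15. Arrays with different numbers were not compared, so these correlations cannot settle whether the numbers pair arrays. With the replicate block, members called higher and lower were 4 and 9, 5 and 1, and 2 and 11. Over all named genes it called 22.3%, 9.82% and 17.5%. In the first pair lower calls went from 13 to 9 in members and from 755 to 747 in all genes. Complex medians moved by less than their SD under each alternative. Loop closure was called for 0 of all genes, so its count of 0 says nothing about stability. A dye term called a dye effect in 0 members (2 per pair at an unadjusted p under 0.05). It also called 0 of all named genes in each pair, so that count says nothing about the members. The largest dye estimate of a member was 1.21, for NDUFB10 in CMT-U229 over CMT-U335. For the counts the cause was not tested. The unknown signal over background limits all ratios.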
